A study of Mus musculus with 5 samples.

Results

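The collagen chain genes are the 44 genes, of 28001 features in the deposited gene list, whose symbol has the form Col, a number, the letter a and a number. Each encodes 1 alpha chain of a collagen. By class they comprise 11 fibrillar, 9 basement membrane, 9 FACIT (fibril-associated), 3 network, 6 beaded filament and 6 transmembrane or other members. The study profiled sorted tdTomato-labelled mesenchymal progenitors from mouse hindlimb muscle by single-cell RNA-seq. There was 1 library from uninjured (quiescent) muscle and 1 each from days 1, 2, 4 and 14 after injury with the myotoxin notexin. All 5 libraries share 1 genotype, Hic1CreERT2/CreERT2;Rosa26LSLtdTomato/+ on C57BL/6J. Both Hic1 alleles thus carry the tamoxifen-inducible recombinase in uninjured mice too, and cells in which it was active keep the tdTomato label. All mice were given tamoxifen at 8 weeks of age, 2.5 mg in 100 uL on each of 5 days, with a washout of 10 days. The number of animals behind a library is not given in the labels. Cells were split by marker UMIs (unique molecular identifiers, 1 per captured transcript) into tenocytes, mural cells and all other cells. Tenocytes had at least 5 UMIs of Tnmd, Fmod, Kera and Chad together, and mural cells at least 5 of Rgs5, Kcnj8, Abcc9 and Higd1b.

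Collagens are secreted as trimers of alpha chains, which are hydroxylated and folded in the endoplasmic reticulum, trimmed outside the cell and crosslinked. Fibrillar collagens bear the load of tendon and of the connective tissue sheaths of muscle, and FACIT collagens sit on the surface of their fibrils. Basement membrane collagens form the sheet around each muscle fibre and capillary, and the beaded filaments of type VI collagen link that sheet to the fibrils. Fibroblasts, tendon cells and the mural cells that wrap small vessels all make collagen in muscle, and fibroblasts are known to lay down matrix after muscle injury.

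Levels are given in CPM, a gene's UMIs scaled to the total of its population and library (counts per 1e6 UMIs). After the limits of at least 500 genes and at most 10% mitochondrial UMIs, the numbers of cells kept were 2138 at quiescence, 4816 on day 1, 2549 on day 2, 4107 on day 4 and 3475 on day 14. Their UMIs summed to 8011891 in the smallest library, the quiescent one, and 44539781 in the largest, day 1. Tenocytes numbered 126 at quiescence, 183 on day 1, 99 on day 2, 182 on day 4 and 804 on day 14. Mural cells numbered 112 at quiescence, 97 on day 1, 42 on day 2, 114 on day 4 and 243 on day 14. Other cells numbered 1900 at quiescence, 4536 on day 1, 2407 on day 2, 3810 on day 4 and 2424 on day 14, and 6 cells in all met both marker rules and were left out. The median number of UMIs per kept cell was 3772 at quiescence, 8564 on day 1, 10765 on day 2, 6976 on day 4 and 4748 on day 14, so that depth differed between libraries. In mural cells this median was lower in every library, with 1427 at quiescence, 3028 on day 1, 5410.0 on day 2, 4059 on day 4 and 2786 on day 14. Of all barcodes, 154 occurred in more than 1 library, with 8 to 26 shared by any pair. Of 6 tenocyte markers that the rule did not use, 5 were above other cells in tenocytes of all 5 libraries, as were 6 of 6 such mural markers in mural cells. The exception was Egr1, at 911 CPM in quiescent tenocytes against 1015 CPM in quiescent other cells. Mkx, a tendon regulator, measured 144 CPM at quiescence, 50.5 on day 1, 55.9 on day 2, 67.6 on day 4 and 164 on day 14 in tenocytes, and at most 1.70 CPM in other cells. Scx, another tendon regulator, measured 121 CPM at quiescence, 6.92 on day 1, 10.9 on day 2, 17.9 on day 4 and 58.7 on day 14 in tenocytes, so that it was low there on days 1, 2 and 4. Notch3, a receptor of mural cells, measured 549 CPM at quiescence, 178 on day 1, 165 on day 2, 408 on day 4 and 569 on day 14 in mural cells and at most 11.4 CPM in other cells. Other cells carried the progenitor gene Pdgfra at 318 CPM at quiescence, 235 on day 1, 216 on day 2, 189.9 on day 4 and 252 on day 14, and markers of immune, endothelial, myogenic and erythroid cells were low. In other cells the immune list summed to at most 11.1 CPM, the endothelial list to 30.9, the myogenic list to 30.4 and the erythroid pair to 1.78. The immune gene Ptprc was there at 0.166 CPM or less and the endothelial gene Cdh5 at 1.77 CPM or less. Hic1, whose locus carries the recombinase, measured 37.8 CPM at quiescence, 10.1 on day 1, 21 on day 2, 30.9 on day 4 and 36.1 on day 14 in other cells, and tdTomato was present in all 15 combinations of population and library, at 745 CPM or more.

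The letters upstream of 5 members are shown because these members mark the patterns described further on. They are the fibrillar chain with most UMIs (Col3a1), the chains of type XI collagen found in tenocytes (Col11a1, Col11a2), the network chain that was higher after injury (Col8a1) and a basement membrane zone chain that was lower at day 1 (Col15a1). Each line is the 150 bases before the transcription start in RefSeq, 5′ to 3′ on the gene's own strand (GRCm38.p6). The windows lie at chr1:45311388-45311537 on the + strand, chr3:114030390-114030539 on the + strand, chr17:34038988-34039137 on the + strand, chr16:57754738-57754887 on the - strand and chr4:47207862-47208011 on the + strand. Capitals mark a match, on either strand, to the letters CCAAT (the CCAAT box), to TATAAA (the TATA box) or to TGANTCA (the binding element of AP-1).
Col3a1: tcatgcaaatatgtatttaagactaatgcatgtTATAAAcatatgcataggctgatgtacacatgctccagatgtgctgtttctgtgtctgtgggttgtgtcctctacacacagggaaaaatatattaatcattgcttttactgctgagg
Col11a1: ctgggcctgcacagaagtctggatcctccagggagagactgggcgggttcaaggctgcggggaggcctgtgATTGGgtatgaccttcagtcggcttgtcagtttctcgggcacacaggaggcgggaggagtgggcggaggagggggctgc
Col11a2: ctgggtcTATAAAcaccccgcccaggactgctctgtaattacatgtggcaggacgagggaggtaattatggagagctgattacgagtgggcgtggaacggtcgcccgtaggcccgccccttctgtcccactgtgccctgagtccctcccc
Col8a1: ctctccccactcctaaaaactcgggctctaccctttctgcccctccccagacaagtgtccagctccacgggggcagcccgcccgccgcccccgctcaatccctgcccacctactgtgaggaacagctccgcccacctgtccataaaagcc
Col15a1: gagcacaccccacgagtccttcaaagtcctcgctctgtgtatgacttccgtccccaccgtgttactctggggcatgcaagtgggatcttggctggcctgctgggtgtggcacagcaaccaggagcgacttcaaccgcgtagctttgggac
Col3a1 and Col11a2 each hold a TATAAA, and Col11a1 holds a CCAAT that reads on the opposite strand. The windows of Col8a1 and Col15a1 hold none of the 3 motifs, which do not overlap each other here. Of 38 windows found for 35 of the 44 members, 8 held CCAAT, against 24.5% of all 32851 windows in the table. Of the same 38, 4 held TATAAA, against 7.57%, and 1, of Col6a1, held TGANTCA, against 4.24%.

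Collagen transcripts made up a larger share of UMIs in tenocytes than in other cells in all 5 libraries, and a smaller share in mural cells in 4 of 5. Over summed UMIs the share was lowest at day 1 in each population. In tenocytes the 44 genes took, over summed UMIs, 3.54% at quiescence, 0.855% on day 1, 1.38% on day 2, 3.11% on day 4 and 2.92% on day 14. In mural cells they took 0.627% at quiescence, 0.522% on day 1, 0.788% on day 2, 1.19% on day 4 and 0.549% on day 14. In other cells they took 1.82% at quiescence, 0.431% on day 1, 0.89% on day 2, 3.03% on day 4 and 2.00% on day 14. The smallest of these sums, in quiescent mural cells, rested on 1234 UMIs. The share in other cells was thus lower at days 1 and 2 than in the quiescent library and higher at day 4. Per cell, the median share was 2.75% at quiescence, 0.851% on day 1, 1.34% on day 2, 2.64% on day 4 and 2.51% on day 14 among tenocytes. Among mural cells the median was 0.362% at quiescence, 0.453% on day 1, 0.560% on day 2, 0.508% on day 4 and 0.362% on day 14, so that by the median mural cell day 1 was not the lowest. Among other cells the median was 1.55% at quiescence, 0.385% on day 1, 0.838% on day 2, 2.60% on day 4 and 1.48% on day 14. Cells between the 10th and 90th percentile spanned 0.135 to 0.986% at day 1 and 0.789 to 4.92% at day 4 in other cells, so that cells of 1 library spread over several fold. At day 4 the median mural cell had 0.508% and the 90th percentile 2.66%, so that the summed share of 1.19% lay above most cells.

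**Figure D1:**
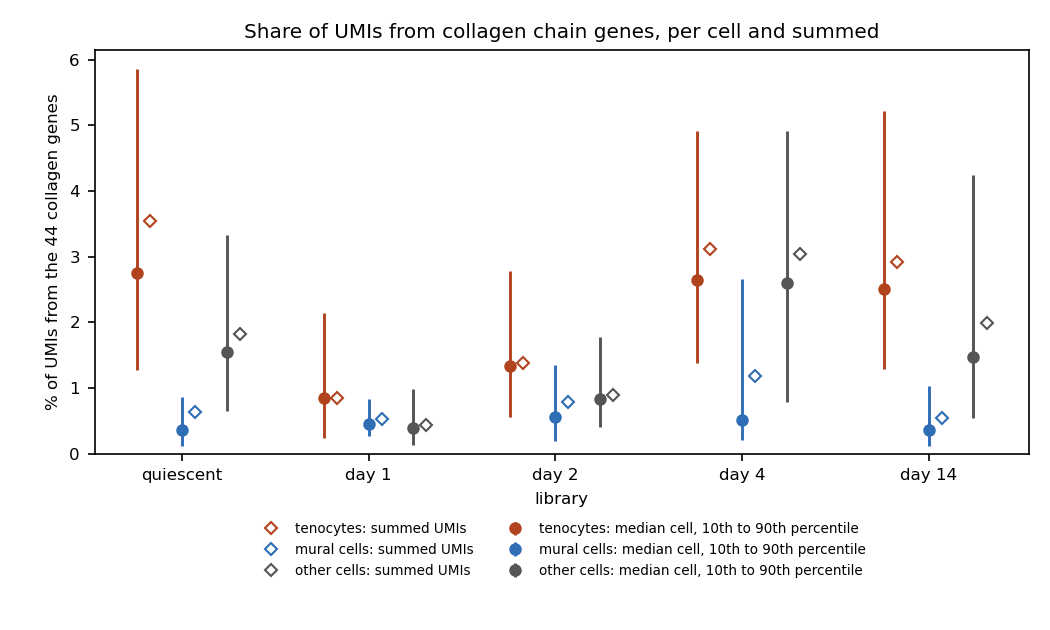
Percent of UMIs from the 44 collagen chain genes (y axis) by library (x axis) for tenocytes, mural cells and other cells; filled points are the median cell with bars over the 10th to 90th percentile of cells, open diamonds the share of summed UMIs. Day 1 is lowest for summed UMIs in all 3 populations, and other cells reach 3.03% at day 4.

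With 1 library per time point there was no replicate, so no test was made and every difference is between libraries. Counts of higher and lower genes took a CPM ratio of at least 2, with at least 20 CPM on the higher side. The same count over all features that reached 20 CPM on either side is given beside each. Ranges after a fold are exact 95% intervals of a ratio of UMI counts, which cover counting error only. Of the 44 members, 30 reached 20 CPM in some population and library: 11 of 11 fibrillar, 6 of 9 basement membrane, 4 of 9 FACIT, 2 of 3 network, 4 of 6 beaded filament and 3 of 6 transmembrane or other. The 3′ tags count transcripts and not their length, so CPM may be set side by side between genes as transcripts captured, though capture can differ between genes.

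**Figure D2:**
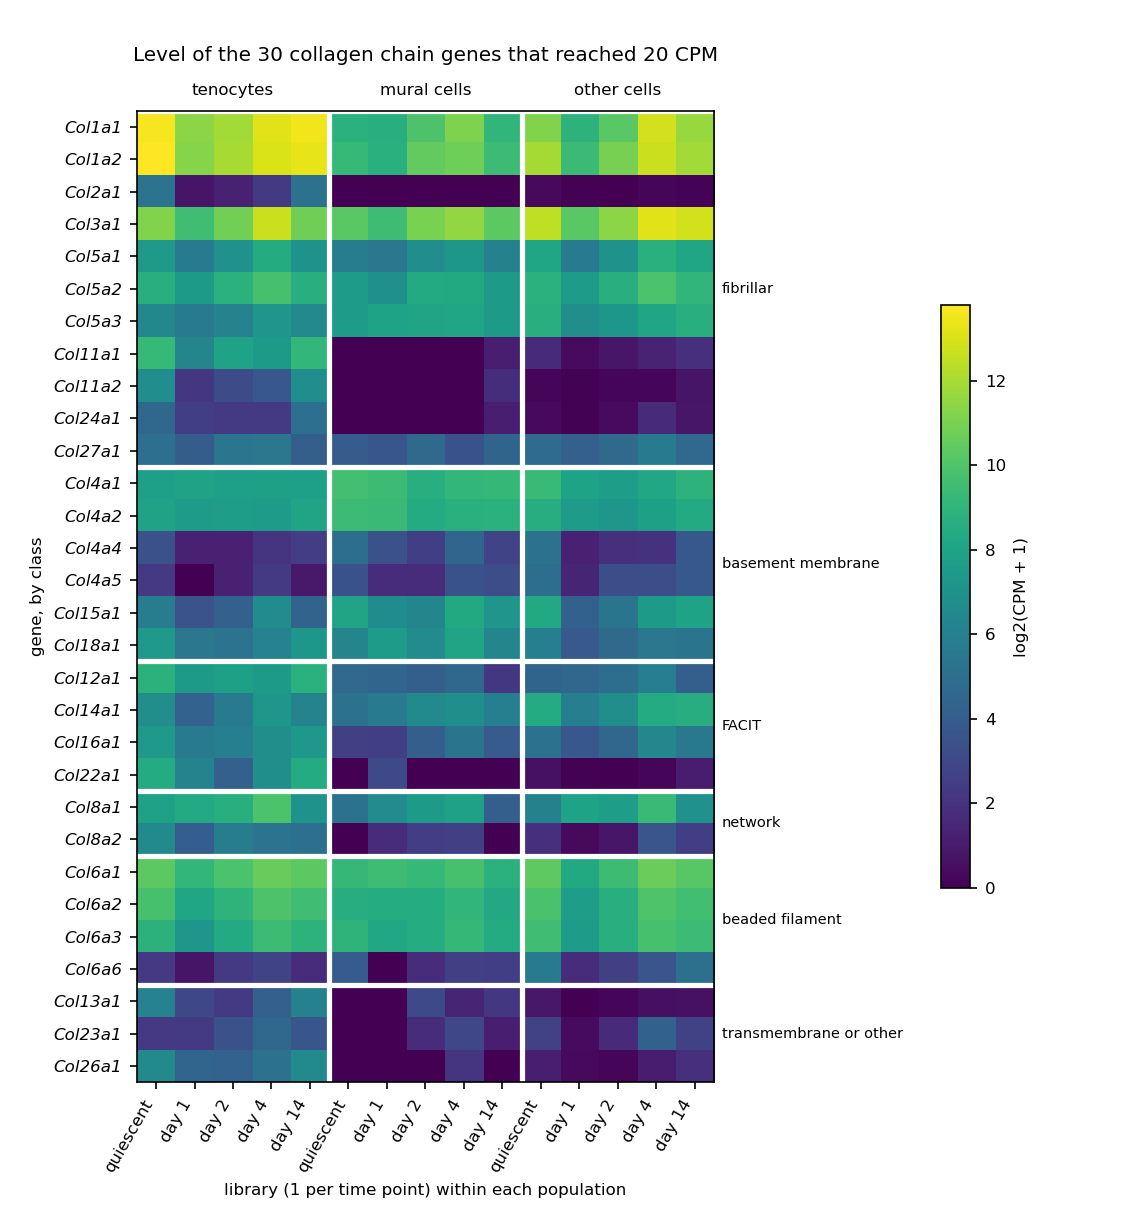
Level of the 30 members that reached 20 CPM, as log2(CPM + 1) in colour, by class (rows) and by population and library (columns, tenocytes at the left, then mural cells and other cells). Col1a1, Col1a2 and Col3a1 are the brightest rows, and Col2a1, Col11a1, Col11a2, Col22a1, Col13a1 and Col26a1 are brighter in tenocytes of the quiescent and day 14 libraries than in any column of the other populations.

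In other cells, nearly all collagen genes were lower at day 1 than in quiescent muscle, several fibrillar and fibril-associated chains were higher at day 4, and at day 14 only 2 basement membrane chains still passed the 2-fold limit. At day 1, 1 of the 21 members compared was higher and 18 were lower, where 15.5% and 24.3% of all 6045 features were. At day 2, 1 of 21 was higher and 12 lower, where 11.3% and 17.4% of all features were. Day 4 had 5 of 21 higher and 4 lower (all features 6.34% and 9.92%), and day 14 had 0 higher and 2 lower (1.04% and 0.643%). The 1 higher member at days 1 and 2 was Col8a1, and the 2 that were neither at day 1 were Col27a1 and Col12a1. The median member had a log2 ratio of -2.11 on day 1, -1.16 on day 2, 0.19 on day 4 and -0.14 on day 14, where the median of all features was -0.16, -0.03, 0.02 and -0.01. With TMM scaling the median of all features at day 1 moved to 0.30 and higher features made up 67.7% of those counted, against 38.9% by CPM, while the members stood at 1 higher and 15 lower.

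Set against the library before it, other cells had more members higher than lower at days 2 and 4. Day 2 had 8 of 18 members higher than day 1 and 0 lower, where 9.68% and 8% of all features were. With TMM 3 members were higher at this step, and with DESeq2 size factors 4. Day 4 had 12 of 18 higher than day 2 and 0 lower, where 6.93% and 3.77% of all features were. Day 14 had 1 of 19 higher than day 4 (Col6a6) and 4 lower (Col1a1, Col27a1, Col12a1 and Col8a1), where 8.01% and 5.36% of all features were. With the mean of cells in place of summed UMIs, 2 were lower at this step.

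**Figure D3:**
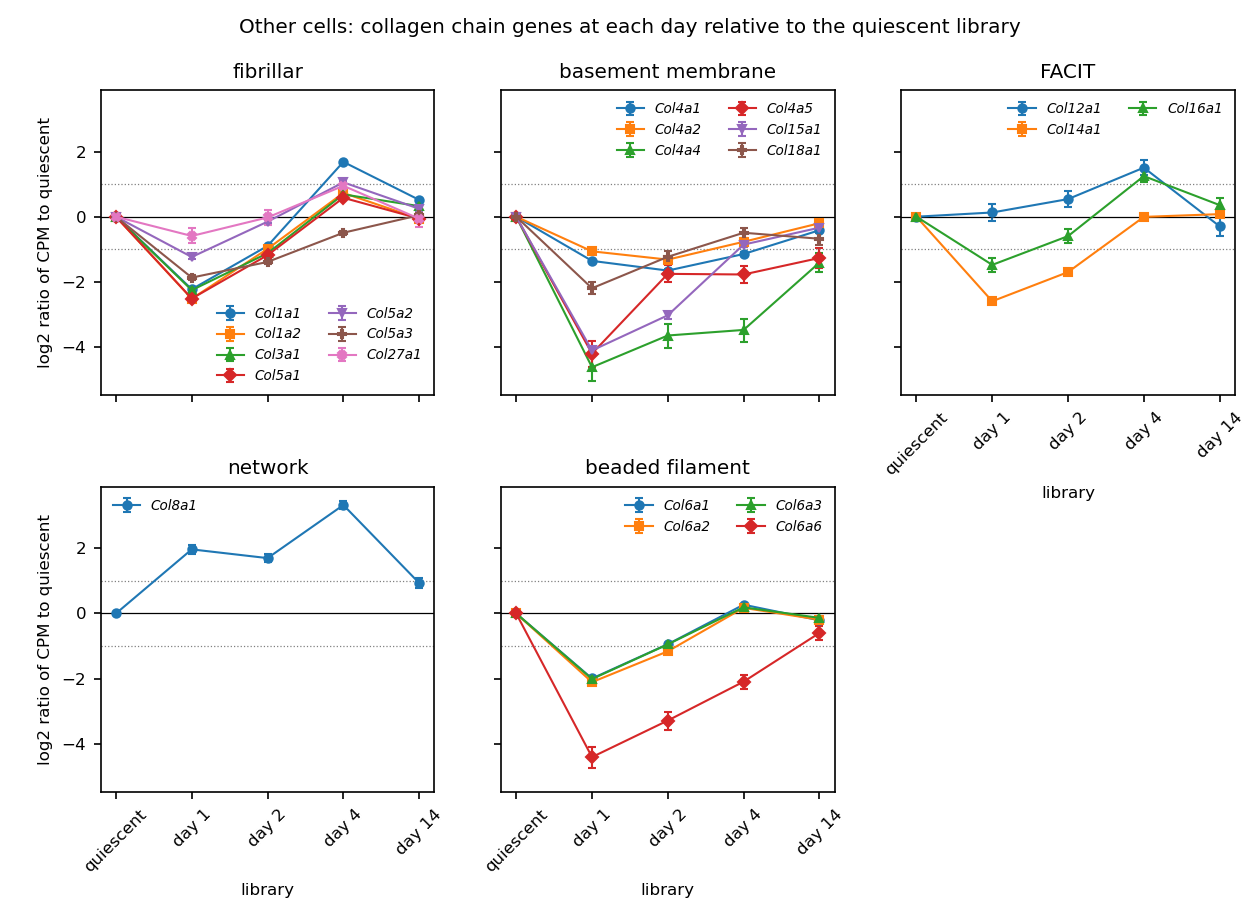
Log2 ratio of CPM at each day to the quiescent library in other cells (y axis) by library (x axis), 1 panel per class, for members that reached 20 CPM in either library; bars are exact 95% intervals of counting error and dotted lines mark 2-fold. Most lines dip at day 1, Col8a1 lies above 0 at all 4 days, and Col4a4 and Col6a6 dip furthest.

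Among fibrillar chains in other cells, Col3a1, which encodes the chain of type III collagen, had the highest level in each library. It measured 5767 CPM at quiescence, 1204 on day 1, 2649.9 on day 2, 9279 on day 4 and 7223 on day 14. Col3a1 was 4.79-fold lower (4.73 to 4.85) at day 1 than in quiescent muscle and 1.61-fold higher (1.59 to 1.63) at day 4, which is under the 2-fold limit. Col1a2, a chain of type I collagen, the main collagen of tendon and fibrous tissue, measured 3917 CPM at quiescence, 681 on day 1, 1974 on day 2, 6499 on day 4 and 3756 on day 14. Its partner Col1a1 measured 2289 CPM at quiescence, 487 on day 1, 1227 on day 2, 7366 on day 4 and 3277 on day 14. Col1a1 was 4.70-fold lower (4.60 to 4.79) at day 1 and 3.22-fold higher (3.17 to 3.27) at day 4. Col1a2 was 5.75-fold lower (5.66 to 5.84) at day 1 and 1.66-fold higher (1.64 to 1.68) at day 4, and so did not pass the limit there. Col5a2 encodes a chain of type V collagen, which sets the width of type I fibrils, and measured 454 CPM at quiescence, 193 on day 1, 409 on day 2, 945 on day 4 and 538 on day 14. Its level was 2.36-fold lower (2.27 to 2.46) at day 1 and 2.08-fold higher (2.01 to 2.16) at day 4. Col5a1, its partner chain, measured 289 CPM at quiescence, 50.6 on day 1, 128 on day 2, 433 on day 4 and 278 on day 14. Col5a3, another type V chain, measured 408 CPM at quiescence, 111 on day 1, 156 on day 2, 289.7 on day 4 and 421 on day 14. At day 4 it alone of the type I, III and V chains was below its quiescent level, 1.41-fold lower (1.35 to 1.47). Col27a1, a minor fibrillar chain, measured 26.8 CPM at quiescence, 17.8 on day 1, 26.4 on day 2, 51.9 on day 4 and 25.7 on day 14, which stayed within 2-fold at all 4 days. Col2a1, Col11a1, Col11a2 and Col24a1 did not reach 20 CPM in other cells.

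Basement membrane chains stayed low longer. All 6 that were compared in other cells were lower at days 1 and 2, and 3 of 6 were lower at day 4. Col4a1 and Col4a2 encode the common chains of type IV collagen and start 21 bases apart on opposite strands of chromosome 8. Col4a1 measured 647 CPM at quiescence, 252 on day 1, 205 on day 2, 292 on day 4 and 485 on day 14 in other cells. Col4a2 measured 388 CPM at quiescence, 186 on day 1, 156 on day 2, 227 on day 4 and 338 on day 14. Both were lowest at day 2, where Col4a1 was 3.15-fold lower (3.04 to 3.27) and Col4a2 2.50-fold lower (2.38 to 2.61) than in quiescent muscle. Col15a1 encodes a chain that bridges basement membrane and fibrils and measured 325 CPM at quiescence, 18.8 on day 1, 39.7 on day 2, 179 on day 4 and 257 on day 14. Col15a1 was 17.3-fold lower (16.0 to 18.8) at day 1, 8.18-fold lower (7.64 to 8.77) at day 2 and 1.81-fold lower (1.73 to 1.90) at day 4. Col18a1, whose product is the source of endostatin, measured 61.2 CPM at quiescence, 13.3 on day 1, 26.0 on day 2, 43.4 on day 4 and 38.2 on day 14. Col4a4 and Col4a5 belong to the minor type IV chains of kidney and other specialised membranes. Col4a4 measured 34.2 CPM at quiescence, 1.38 on day 1, 2.72 on day 2, 3.06 on day 4 and 12.8 on day 14. Col4a5 measured 30.8 CPM at quiescence, 1.66 on day 1, 9.10 on day 2, 8.98 on day 4 and 12.8 on day 14. At day 14 these were the 2 members counted as lower in other cells, at 2.66-fold lower (2.17 to 3.27) for Col4a4 and 2.41-fold lower (1.96 to 2.97) for Col4a5.

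FACIT chains differed from each other in other cells. Col14a1, which binds fibrils of skin and tendon, measured 363 CPM at quiescence, 59.8 on day 1, 111 on day 2, 361 on day 4 and 383 on day 14. At day 1 it was 6.07-fold lower (5.74 to 6.41) than in quiescent muscle, and at day 4 1.00-fold lower (0.962 to 1.05). Col12a1, the FACIT of dense connective tissue and tendon, measured 20.8 CPM at quiescence, 22.8 on day 1, 30.3 on day 2, 59.2 on day 4 and 16.9 on day 14. It was 2.85-fold higher (2.41 to 3.38) at day 4. Col16a1, a FACIT of fibroblasts, measured 34.6 CPM at quiescence, 12.4 on day 1, 22.9 on day 2, 82.3 on day 4 and 44.3 on day 14. Col16a1 was 2.79-fold lower (2.39 to 3.25) at day 1 and 2.38-fold higher (2.09 to 2.72) at day 4.

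The network chain Col8a1 was the 1 member that was higher in other cells at days 1, 2 and 4. Its product is a short chain of type VIII collagen, known from vessel walls and the eye. Col8a1 measured 65.0 CPM at quiescence, 255 on day 1, 212 on day 2, 656 on day 4 and 124 on day 14 in other cells. It was 3.92-fold higher (3.58 to 4.31) on day 1, 3.26-fold higher (2.97 to 3.58) on day 2, 10.1-fold higher (9.22 to 11.1) on day 4 and 1.91-fold higher (1.73 to 2.12) on day 14, the last of which is just under the limit. Across the marker limits of 3 UMIs, 10 UMIs and 0.1%, TMM and DESeq2 scaling, the mean of cells and the limit of 4000 UMIs, the ratio lay between 3.60 and 5.39 at day 1. Under the same settings it lay between 2.70 and 3.78 at day 2, between 8.15 and 10.7 at day 4 and between 1.46 and 2.00 at day 14. After each cell was thinned to 1500 UMIs to match depth, the share of other cells with a Col8a1 UMI was 5.82% (4.78 to 7.01) at quiescence, 21.1% (19.96 to 22.4) on day 1, 16.5% (15.1 to 18.1) on day 2, 31.0% (29.6 to 32.5) on day 4 and 6.97% (5.98 to 8.08) on day 14. Unthinned, the shares were 11.4% at quiescence, 45% on day 1, 40.7% on day 2, 49.4% on day 4 and 15.6% on day 14. In mural cells, which also carried Col8a1 and so give no background, the thinned shares were 2.13% (0.0539 to 11.3) at quiescence, 5.15% (1.69 to 11.6) on day 1, 4.76% (0.582 to 16.2) on day 2, 13.2% (7.56 to 20.8) on day 4 and 0.442% (0.0112 to 2.44) on day 14. Type VIII collagen's other chain, Col8a2, measured 2.74 CPM at quiescence, 0.281 on day 1, 0.758 on day 2, 11.5 on day 4 and 4.90 on day 14.

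The beaded filament chains Col6a1, Col6a2 and Col6a3, the subunits of type VI collagen, moved together in other cells. Col6a1 measured 1340.5 CPM at quiescence, 335 on day 1, 697 on day 2, 1617 on day 4 and 1158 on day 14. Col6a2 measured 909 CPM at quiescence, 210.4 on day 1, 406 on day 2, 1025 on day 4 and 796 on day 14. Col6a3 measured 763 CPM at quiescence, 189 on day 1, 395 on day 2, 871 on day 4 and 695 on day 14. All 3 were lower at day 1, by 4.00-fold for Col6a1, 4.32-fold for Col6a2 and 4.05-fold for Col6a3, and none passed the limit at day 4 or 14. Col6a6, an alternative to Col6a3 in type VI collagen, measured 49.5 CPM at quiescence, 2.32 on day 1, 5.06 on day 2, 11.6 on day 4 and 32.7 on day 14. It was 21.4-fold lower (17.1 to 26.9) at day 1 and 4.28-fold lower (3.68 to 4.97) at day 4, so it stayed low when the other type VI chains were back within 2-fold. Col23a1, a membrane-bound collagen, measured 5.47 CPM at quiescence, 0.328 on day 1, 2.12 on day 2, 18.5 on day 4 and 5.62 on day 14, so that it came near 20 CPM at day 4 alone.

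Tenocytes differed from other cells in which collagens they carried. Of the 17 members that reached 20 CPM in the higher population of every library, 2 were higher in tenocytes in all 5 libraries (Col11a1 and Col12a1) and 1 was lower (Col14a1), where 1.79% and 1.7% of all 4291 features were. These counts moved with the settings: 4 were higher with a marker limit of 0.1% of UMIs, and 0 were lower with a marker limit of 3 UMIs. Col11a1, a chain of type XI collagen that nucleates fibrils in cartilage and tendon, measured 613 CPM at quiescence, 75.4 on day 1, 247 on day 2, 184 on day 4 and 549 on day 14 in tenocytes. In other cells Col11a1 measured 2.19 CPM at quiescence, 0.328 on day 1, 0.758 on day 2, 1.63 on day 4 and 2.81 on day 14. The ratio was 113 at its lowest, at day 4, and 325 at its highest, at day 2. After thinning to 1500 UMIs, the share of tenocytes with a Col11a1 UMI was 46.3% (37.3 to 55.6) at quiescence, 11.5% (7.25 to 17.0) on day 1, 40.4% (30.7 to 50.7) on day 2, 23.1% (17.2 to 29.9) on day 4 and 50.3% (46.8 to 53.8) on day 14. In other cells the thinned share was 0.336% (0.123 to 0.730) at quiescence, 0.0661% (0.0136 to 0.193) on day 1, 0.0831% (0.0101 to 0.3) on day 2, 0.184% (0.0739 to 0.378) on day 4 and 0.338% (0.146 to 0.665) on day 14. In mural cells it was 0 of 47, 97, 42, 114 and 226 cells in the same order of libraries, which allows up to 8.41% in the library with fewest (exact 95% limit). With 2500 UMIs the share of tenocytes was 35.4% on day 2 and 35.6% on day 4, so that the difference between these days at 1500 UMIs did not hold. Unthinned, the share of tenocytes was 71.4% at quiescence, 37.7% on day 1, 67.7% on day 2, 54.4% on day 4 and 81.1% on day 14.

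Col12a1 measured 460.5 CPM at quiescence, 179.8 on day 1, 228 on day 2, 180.4 on day 4 and 455 on day 14 in tenocytes. It was 22.1-fold higher (18.0 to 27.3) there than in other cells of the quiescent library, 3.05-fold higher (2.67 to 3.46) at day 4 and 26.8-fold higher (23.3 to 31.1) at day 14. The gap narrowed at day 4 from both sides, since tenocytes were lower and other cells higher than in the quiescent library. Col14a1 measured 113 CPM at quiescence, 19.4 on day 1, 49.1 on day 2, 158 on day 4 and 70.3 on day 14 in tenocytes. It was 2.27-fold lower (1.64 to 3.25) than in other cells at day 2, its nearest library, and 5.45-fold lower (4.85 to 6.15) at day 14, its farthest. The FACIT chains Col12a1 and Col14a1 thus stood on opposite sides of other cells. Col22a1, known from the junctions of muscle with tendon, measured 354 CPM at quiescence, 69.9 on day 1, 17.7 on day 2, 117 on day 4 and 353 on day 14 in tenocytes. In other cells it measured 0.547 CPM at quiescence, 0.0703 on day 1, 0.0316 on day 2, 0.2 on day 4 and 1.04 on day 14, where no library had more than 13 UMIs. It was 646-fold higher (248 to 2398) in tenocytes of the quiescent library and 338-fold higher (197 to 636) at day 14.

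The minor chains Col11a2, Col2a1, Col24a1, Col13a1 and Col26a1 had more UMIs in tenocytes than in other cells over the 5 libraries together. Within tenocytes they were highest in the quiescent and day 14 libraries. Col11a2, the other chain of type XI collagen, measured 109 CPM at quiescence, 3.46 on day 1, 8.18 on day 2, 12.6 on day 4 and 109 on day 14 in tenocytes. Its highest value in other cells was 0.723 CPM. Col2a1, the main collagen of cartilage, measured 37.5 CPM at quiescence, 0.692 on day 1, 1.36 on day 2, 3.98 on day 4 and 34.3 on day 14 in tenocytes. Its highest value in other cells was 0.274 CPM. Col24a1, a fibrillar chain known from bone, measured 23.7 CPM at quiescence, 4.84 on day 1, 4.09 on day 2, 3.98 on day 4 and 31.3 on day 14 in tenocytes. Its highest value in other cells was 2.30 CPM on day 4, from 69 UMIs, where tenocytes had 6 UMIs and were 1.73-fold higher (0.615 to 3.97), with an interval that includes 1. The counts behind these values were modest, with Col2a1 UMIs of 19 at quiescence, 1 on day 1, 1 on day 2, 6 on day 4 and 145 on day 14, and Col24a1 UMIs of 12 at quiescence, 7 on day 1, 3 on day 2, 6 on day 4 and 132 on day 14. Col13a1, a membrane-bound collagen of the neuromuscular junction, measured 69.2 CPM at quiescence, 6.92 on day 1, 4.09 on day 2, 17.9 on day 4 and 65.1 on day 14 in tenocytes. Col26a1 measured 96.8 CPM at quiescence, 21.4 on day 1, 19.1 on day 2, 34.5 on day 4 and 91.2 on day 14. In other cells both stayed at or below 2.57 CPM. Col8a2 measured 92.9 CPM at quiescence, 16.6 on day 1, 55.9 on day 2, 37.1 on day 4 and 31.7 on day 14 in tenocytes. Its course differed from that of the chains above, since its day 14 value lay below those of days 2 and 4. By CPM, Col8a2 was above other cells in every library, with ratios of 3.24 to 73.7.

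Both chains of type I collagen were higher in tenocytes than in other cells in 5 of 5 libraries, though under 2-fold at day 4. Col1a1 measured 12476 CPM at quiescence, 2662 on day 1, 3768 on day 2, 9262 on day 4 and 11675 on day 14 in tenocytes. It was 5.45-fold higher (5.29 to 5.61) there than in other cells of the quiescent library and 1.26-fold higher (1.24 to 1.28) at day 4. Col1a2 measured 14136 CPM at quiescence, 2529 on day 1, 4068 on day 2, 8183 on day 4 and 9841 on day 14. Col3a1 stood the other way, at 2346 CPM at quiescence, 746 on day 1, 1865 on day 2, 6615 on day 4 and 1755 on day 14 in tenocytes. It was 2.46-fold lower (2.32 to 2.61) than other cells in the quiescent library, 1.4-fold lower (1.38 to 1.43) at day 4 and 4.11-fold lower (4.02 to 4.21) at day 14. Col5a3 measured 81.0 CPM at quiescence, 53.3 on day 1, 68.2 on day 2, 152 on day 4 and 89.98 on day 14 in tenocytes, and was also below other cells in 5 of 5 libraries, with ratios of 0.199 to 0.524. Col16a1 measured 176 CPM at quiescence, 49.8 on day 1, 61.4 on day 2, 112 on day 4 and 162 on day 14 in tenocytes. Col18a1 measured 178 CPM at quiescence, 43.6 on day 1, 36.8 on day 2, 69.0 on day 4 and 157 on day 14 there. Both were above other cells in 5 of 5 libraries, with ratios of 1.36 to 5.08 for Col16a1 and 1.42 to 4.09 for Col18a1. Col4a5 and Col6a6 measured 0 to 3.98 and 0.692 to 5.97 CPM in tenocytes. Col15a1 measured 53.4 CPM at quiescence, 10.4 on day 1, 17.7 on day 2, 99.5 on day 4 and 19.7 on day 14 there, and all 3 were below other cells wherever a ratio could be taken. The type VI chains stayed within 2-fold between tenocytes and other cells in every library, with ratios of 0.958 to 1.67 for Col6a1, 0.949 to 1.37 for Col6a2 and 0.601 to 0.859 for Col6a3.

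**Figure D4:**
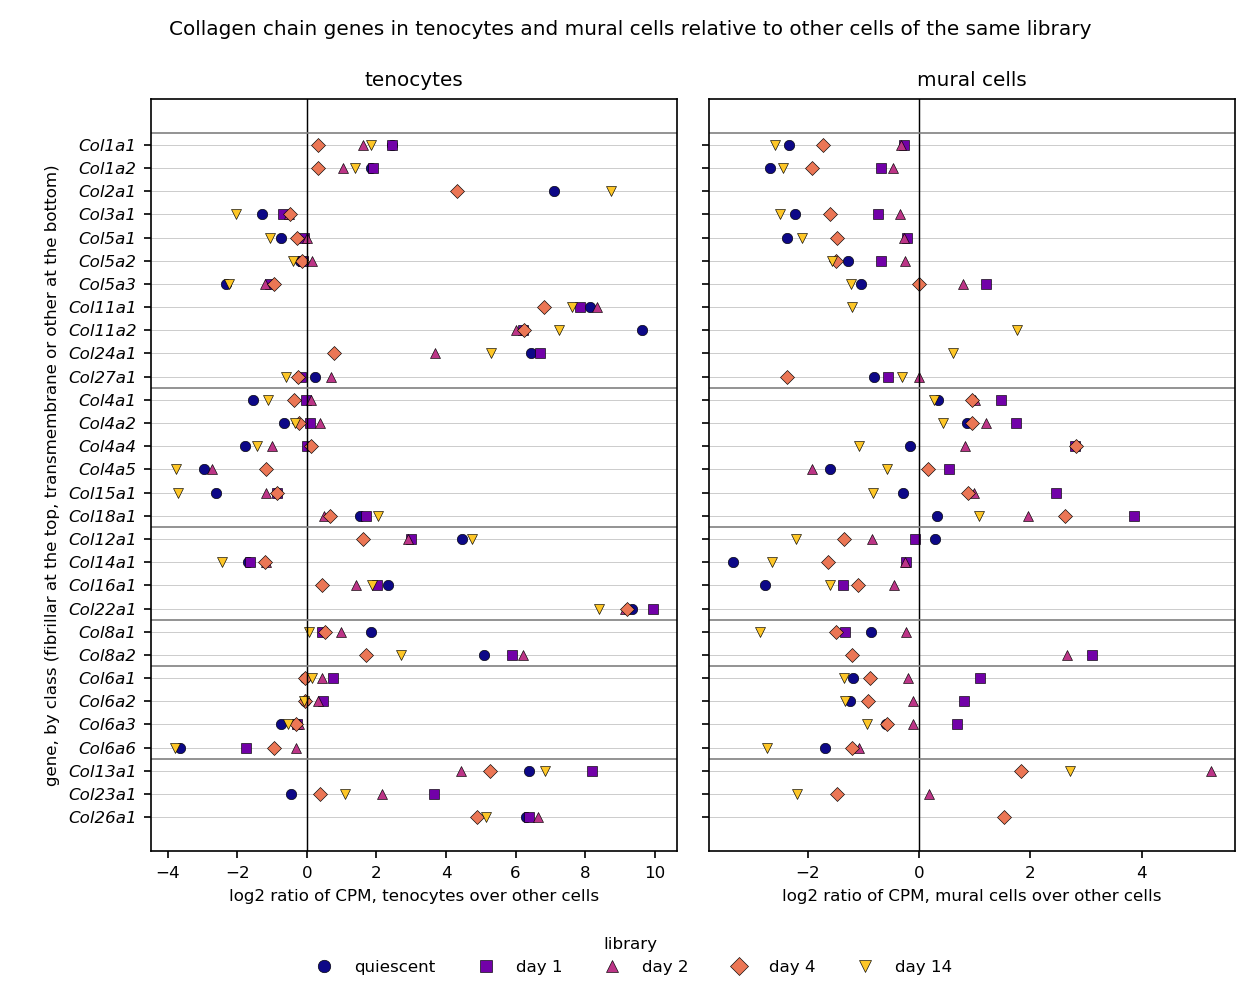
Log2 ratio of CPM in tenocytes (left) and mural cells (right) over other cells of the same library (x axis) for the 30 members that reached 20 CPM (rows, by class), with 1 point per library where a ratio could be measured. Col11a1, Col11a2, Col22a1, Col13a1 and Col26a1 lie far to the right in tenocytes in all 5 libraries, and in mural cells Col4a1, Col4a2 and Col18a1 lie right of 0 and Col1a1, Col1a2 and Col3a1 left of it.

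Over time in tenocytes, most collagen genes were lower at days 1 and 2 than in quiescent muscle, and at day 14 nearly all were back within 2-fold. At day 1, 0 of 26 members were higher and 21 lower, where 13.3% and 21.6% of all features were. At day 2, 0 of 26 were higher and 14 lower (11.5% and 16.5% of all features), and at day 14, 0 of 26 were higher and 2, Col15a1 and Col8a2, lower (5.57% and 3.34%). At day 4, 5 of 27 were higher (Col3a1, Col5a1, Col5a2, Col8a1 and Col23a1) and 10 lower (Col2a1, Col11a1, Col11a2, Col24a1, Col18a1, Col12a1, Col22a1, Col8a2, Col13a1 and Col26a1), where 11.4% and 13.6% of all features were. The 10 include Col2a1, Col11a1, Col11a2, Col22a1, Col13a1 and Col26a1, which stayed under 3 CPM in other cells. Col11a1 was 8.13-fold lower (6.51 to 10.2) at day 1, 3.34-fold lower (2.83 to 3.94) at day 4 and 1.12-fold lower (0.988 to 1.26) at day 14 than in quiescent tenocytes. Col22a1 was lowest at day 2, at 19.96-fold lower (11.4 to 38.2), with 13 UMIs there. Col1a1 was 4.69-fold lower (4.5 to 4.88) at day 1 and 1.35-fold lower (1.31 to 1.39) at day 4, so it stayed below its quiescent level, while in other cells of day 4 it was above. Col12a1 was 2.55-fold lower (2.13 to 3.05) at day 4, where other cells went the opposite way, a difference between populations that was not tested. Col4a1 and Col4a2 stayed within 2-fold of quiescent tenocytes at all 4 days, at 219 CPM at quiescence, 247 on day 1, 221 on day 2, 227 on day 4 and 221 on day 14 for Col4a1 and 194 to 265 CPM for Col4a2. Col8a1 measured 233 CPM at quiescence, 347 on day 1, 419 on day 2, 936 on day 4 and 129 on day 14 in tenocytes. It was 4.01-fold higher (3.32 to 4.88) at day 4 and 1.81-fold lower (1.47 to 2.22) at day 14. Col6a1 measured 1291 CPM at quiescence, 559.6 on day 1, 945 on day 2, 1549 on day 4 and 1280.5 on day 14, with Col6a2 and Col6a3 alongside at 288 to 982 and 155 to 695 CPM.

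The tenocyte rule itself moved with the days. Its 4 markers summed to 13583 CPM at quiescence, 3255 on day 1, 4744 on day 2, 4297 on day 4 and 17269 on day 14 in tenocytes. The progenitor gene Pdgfra measured 35.6 CPM at quiescence, 85.1 on day 1, 102 on day 2, 86.9 on day 4 and 25.3 on day 14 there. Cd34 measured 194 CPM at quiescence, 104 on day 1, 164 on day 2, 308 on day 4 and 125 on day 14 in tenocytes. Pi16 measured 98.8 CPM at quiescence, 23.5 on day 1, 162 on day 2, 292 on day 4 and 173 on day 14. The progenitor genes thus did not move together, and at day 1 Cd34 and Pi16 were below their quiescent levels. Leaving out tenocytes with at least 2 UMIs of the progenitor genes Pdgfra, Cd34 and Pi16, a choice made after seeing the data, left the numbers 100 at quiescence, 130 on day 1, 69 on day 2, 97 on day 4 and 633 on day 14. The members higher at day 4 then numbered 2 in place of 5, as they did with a marker limit of 10 UMIs and with the mean of cells, and 1 with a limit of 0.1% of UMIs. Without those cells Col3a1 was 3.04 times and Col8a1 3.16 times the quiescent value, while Col5a1 was 1.29 and Col5a2 1.70 times. With a marker limit of 10 UMIs Col3a1 was 2.32 times and Col8a1 2.22 times the quiescent value, and with 0.1% of UMIs Col3a1 was 1.86 times and Col8a1 2.06 times.

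Basement membrane chains took a larger part of the collagen UMIs in mural cells than in other cells in all 5 libraries. In mural cells they made up 30.6% at quiescence, 31.5% on day 1, 12.2% on day 2, 13.9% on day 4 and 23.4% on day 14 of collagen UMIs. In other cells they made up 8.22% at quiescence, 11.0% on day 1, 4.95% on day 2, 2.49% on day 4 and 5.76% on day 14. Of 15 members that reached 20 CPM in the higher population of every library, 0 were higher and 0 lower by 2-fold in all 5 libraries, where 5.54% and 0.685% of all 4673 features were. By direction alone, Col4a1, Col4a2 and Col18a1 were higher in mural cells in 5 of 5 libraries. Col4a1 measured 824 CPM at quiescence, 701 on day 1, 409.8 on day 2, 567 on day 4 and 585 on day 14 in mural cells. It was 2.78-fold higher (2.46 to 3.12) than in other cells at day 1 and 1.21-fold higher (1.10 to 1.32) at day 14. Col4a2 measured 707 CPM at quiescence, 622 on day 1, 359 on day 2, 437 on day 4 and 454 on day 14, with ratios to other cells of 1.34 to 3.35. Col18a1 measured 76.3 CPM at quiescence, 193 on day 1, 101 on day 2, 268 on day 4 and 80.7 on day 14 in mural cells. It was 14.5-fold higher (11.3 to 18.3) than in other cells at day 1 and 1.25-fold higher (0.692 to 2.08) in the quiescent library. Col15a1 was above other cells at days 1, 2 and 4 and below them in the other 2 libraries, at 264 CPM at quiescence, 104 on day 1, 79.1 on day 2, 328 on day 4 and 144 on day 14. Col1a1 measured 452 CPM at quiescence, 405 on day 1, 975 on day 2, 2226 on day 4 and 544 on day 14 in mural cells. It was 5.06-fold lower (4.11 to 6.30) than in other cells of the quiescent library and 6.02-fold lower (5.48 to 6.62) at day 14. Col1a2 measured 610.1 CPM at quiescence, 427 on day 1, 1421 on day 2, 1702 on day 4 and 691 on day 14 in mural cells. Col3a1 measured 1225 CPM at quiescence, 725 on day 1, 2092 on day 2, 3046 on day 4 and 1276 on day 14 there. Col1a1, Col1a2, Col3a1, Col5a1, Col5a2, Col14a1, Col16a1 and Col8a1 were below other cells in 5 of 5 libraries, as was Col27a1. Col5a3 was above other cells on days 1 and 2, at 198 CPM at quiescence, 258 on day 1, 268 on day 2, 290.1 on day 4 and 179.8 on day 14 in mural cells, with ratios of 0.427 to 2.32 to other cells.

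In mural cells both the type I and III chains and the fibroblast gene Dcn stood nearest to their levels in other cells at days 1 and 2. Col1a1 in mural cells was 0.198 times its level in other cells at quiescence, 0.831 times on day 1, 0.795 on day 2, 0.302 on day 4 and 0.166 on day 14. Dcn, a proteoglycan gene of fibroblasts, was in mural cells 0.110 times its level in other cells at quiescence, 0.313 times on day 1, 0.6 on day 2, 0.243 on day 4 and 0.0920 on day 14. Dcn does not set other cells apart from tenocytes. It was there 0.946 times its level in other cells at quiescence, 1.87 on day 1, 2.21 on day 2, 1.16 on day 4 and 0.888 on day 14. Pdgfra measured 45.8 CPM at quiescence, 53.0 on day 1, 158 on day 2, 41.7 on day 4 and 25.7 on day 14 in mural cells. It was 0.226 times its level in other cells on day 1, 0.731 on day 2 and 0.219 on day 4, so that days 1 and 4 were alike. Among further progenitor genes, Ly6a, Cd34 and Pi16 were nearest at days 1 and 2. Cxcl14 was not, at 0.309 times at quiescence, 0.247 on day 1 and 1.08 on day 2. Leaving out mural cells with at least 2 UMIs of Pdgfra, Cd34 and Pi16, a choice made after seeing the data, left the numbers 107 at quiescence, 84 on day 1, 23 on day 2, 87 on day 4 and 217 on day 14. In the remaining mural cells Col1a1 measured 229.7 CPM at quiescence, 365 on day 1, 459 on day 2, 1114 on day 4 and 357 on day 14. Col3a1 measured 754 CPM at quiescence, 479 on day 1, 1144 on day 2, 1251 on day 4 and 900.2 on day 14 in those cells. Col4a1 measured 748 CPM at quiescence, 855 on day 1, 775 on day 2, 606 on day 4 and 628 on day 14. With them left out, 5 members were lower than in other cells in all 5 libraries by 2-fold in place of 0. All features that were lower numbered 192 in place of 32. Other cells, where Pdgfra, Cd34 and Pi16 are high, were not filtered, so a wider gap to them is in part built into this choice. The limit is a number of UMIs, so deeper cells reach it more easily.

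Between libraries, mural cells at day 4 had 8 of 18 members higher than in the quiescent library and 0 lower, where 13% and 21.3% of all features were. The 8 were Col1a1, Col1a2, Col3a1, Col5a1, Col18a1, Col14a1, Col16a1 and Col8a1. Day 1 had 2 of 17 higher (Col18a1 and Col8a1) and 2 lower (Col4a4 and Col15a1), where 12.5% and 27.3% of all features were. Day 2 had 4 of 18 higher (Col1a1, Col1a2, Col14a1 and Col8a1) and 3 lower (Col4a1, Col4a4 and Col15a1), where 14.6% and 30% of all features were, and with TMM the members numbered 8 and 2. Day 14 had 0 of 18 higher and 3 lower (Col4a4, Col12a1 and Col8a1), where 8.33% and 10.5% of all features were. The UMIs of quiescent mural cells summed to 196686, so 20 CPM there is only a few UMIs, for members and all features alike. Col8a1 at day 14 had 14 UMIs, against 7 in the quiescent library. Col4a4 was likewise counted from few UMIs, so these calls carry a wide counting error. Col1a1 was 4.92-fold higher (3.97 to 6.17) at day 4. Col18a1 was 2.53-fold higher (1.44 to 4.73) at day 1 and 3.52-fold higher (2.07 to 6.44) at day 4. Col8a1 was 6.56-fold higher (3.10 to 16.6) at day 4, from 7 UMIs in the quiescent library. Col8a1 measured 35.6 CPM at quiescence, 101 on day 1, 179.7 on day 2, 233 on day 4 and 17.1 on day 14 in mural cells. Col14a1 measured 35.6 CPM at quiescence, 50.6 on day 1, 93.5 on day 2, 117 on day 4 and 61.2 on day 14 there. With the progenitor-marker cells left out, its UMIs numbered 2 at quiescence, 0 on day 1, 0 on day 2, 16 on day 4 and 5 on day 14. Quiescent mural cells were the shallowest of all, as given above. When only cells of at least 4000 UMIs were used, a limit chosen after seeing the data that left 8 mural cells in the quiescent library, Col1a1 measured 1360.0 CPM at quiescence, 520.5 on day 1, 1019 on day 2, 2803 on day 4 and 684 on day 14. In those cells the members higher at days 1, 2 and 4 numbered 0, 0 and 1. The median log2 ratio of all features to the quiescent library also moved, to -0.68 on day 1, -0.66 on day 2 and -0.57 on day 4, with 2400, 2594 and 2442 features lower. The 8 quiescent mural cells of this limit held 472 of the 516 Dcn UMIs of all quiescent mural cells. Dcn measured 11261 CPM in them, against 2623 CPM in all quiescent mural cells. With a limit of 1000 genes and 5% mitochondrial UMIs the members higher at those days numbered 0, 2 and 3.

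**Figure D5:**
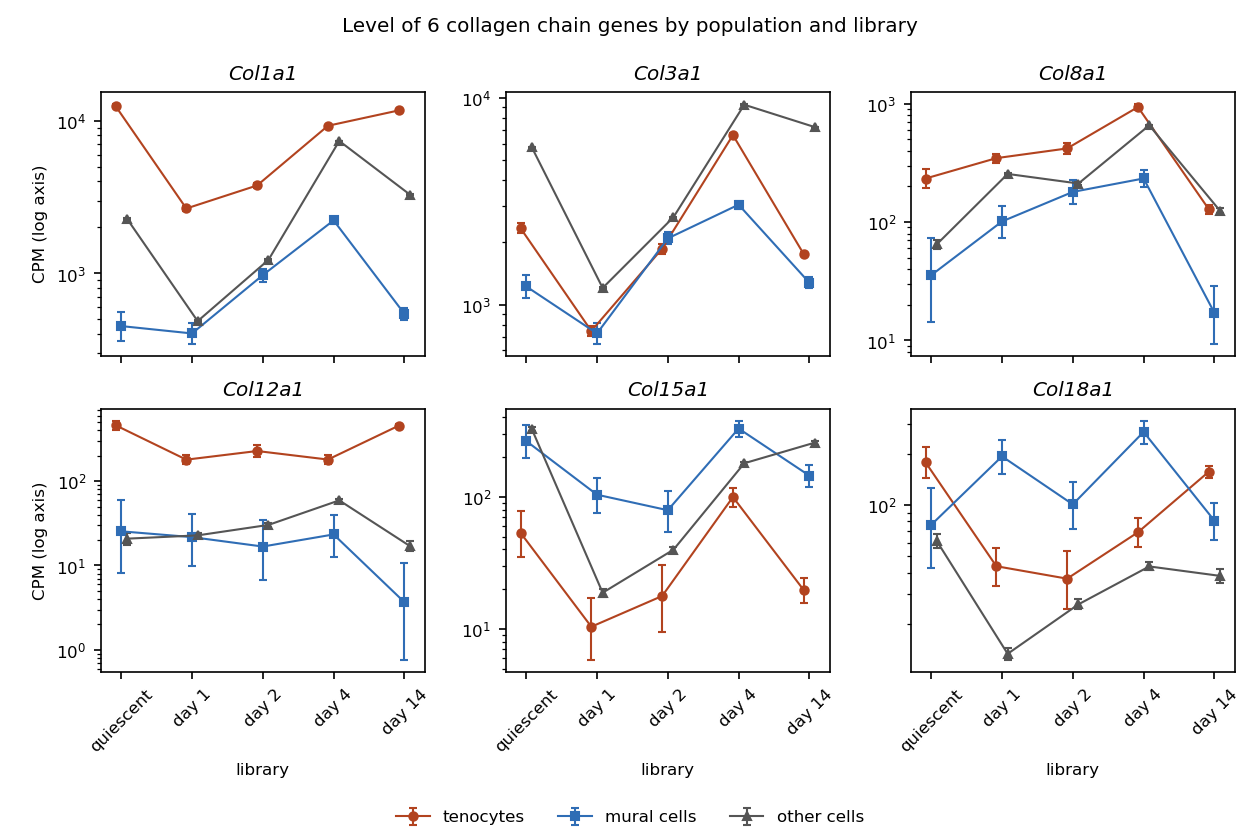
CPM (log axis) of 6 collagen chain genes by library (x axis) in tenocytes, mural cells and other cells; bars are exact 95% Poisson intervals of the UMI count. Col1a1, Col3a1 and Col15a1 are lowest at day 1 or 2 in each population, Col8a1 is highest at day 4 in all 3, and Col12a1 at day 4 lies below its quiescent level in tenocytes and above it in other cells.

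Col1a1 UMIs outnumbered those of Col3a1 in tenocytes in all 5 libraries and were fewer than those of Col3a1 in mural and other cells in all 5. Col1a1 UMIs per Col3a1 UMI numbered 5.32 at quiescence, 3.57 on day 1, 2.02 on day 2, 1.4 on day 4 and 6.65 on day 14 in tenocytes. In mural cells this ratio was 0.369 at quiescence, 0.558 on day 1, 0.466 on day 2, 0.731 on day 4 and 0.427 on day 14. In other cells it was 0.397 at quiescence, 0.405 on day 1, 0.463 on day 2, 0.794 on day 4 and 0.454 on day 14. Tenocytes thus stood apart by this ratio most in the quiescent and day 14 libraries and least at day 4. At day 4 the interval in tenocytes was 1.36 to 1.44 and in other cells 0.789 to 0.798. Col1a1 UMIs per Col1a2 UMI numbered 0.883 at quiescence, 1.05 on day 1, 0.926 on day 2, 1.13 on day 4 and 1.19 on day 14 in tenocytes. In other cells they numbered 0.584 at quiescence, 0.715 on day 1, 0.622 on day 2, 1.13 on day 4 and 0.872 on day 14, highest at day 4. Col6a1 per Col6a2 lay between 1.44 and 1.96 over all 15 combinations of population and library. Col4a1 per Col4a2 was 0.895 at quiescence, 1.24 on day 1, 1.09 on day 2, 1.17 on day 4 and 0.836 on day 14 in tenocytes. In other cells it was 1.67 at quiescence, 1.36 on day 1, 1.32 on day 2, 1.29 on day 4 and 1.44 on day 14. Col4a1 and Col4a2 overlap by their first bases on opposite strands, and Col18a1 overlaps Slc19a1, which reached 76.1 CPM. Whether counting used the strand is not given in the sources used here. Col3a1 and Col5a2 lie 24614 bases apart on chromosome 1. Col3a1 UMIs per Col5a2 UMI numbered 12.7 at quiescence, 6.25 on day 1, 6.48 on day 2, 9.82 on day 4 and 13.4 on day 14 in other cells.

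Genes that modify, export, trim, crosslink, bind and cut collagen were compared in other cells beside the chains, and at day 4 the crosslinking enzyme Lox and the collagenase Mmp13 were among the highest against quiescent muscle. Of 11 hydroxylases and glycosyltransferases compared at day 1, 1 was higher and 5 lower, and of 5 chaperone and export genes 0 and 0. Of 4 propeptide-processing genes 0 were higher and 3 lower, and of 4 crosslinking genes 2 and 1. Of 4 receptors at day 1, 0 were higher and 2 lower, and of 3 collagenases 0 and 3, against the same 15.5% and 24.3% of all features. At day 4 these counts were 1 and 1 of 12 hydroxylases and glycosyltransferases, 2 and 0 of 5 chaperone and export genes and 0 and 1 of 4 propeptide-processing genes. They were 2 and 0 of 4 crosslinking genes, 0 and 1 of 4 receptors and 2 and 0 of 4 collagenases, against the same 6.34% and 9.92% of all features as above. Among these genes the largest ratio at day 4 was that of Mmp13, a collagenase, at 45.7 CPM at day 4 against 2.33 CPM in the quiescent library, 19.6-fold higher (12.2 to 33.8). P4ha3, a prolyl hydroxylase subunit, measured 21.5 CPM at day 4 against 1.23 CPM in the quiescent library, 17.5-fold higher (9.15 to 38.4). Lox, which starts the crosslinking of collagen, was 8.76-fold higher (7.52 to 10.3) at day 4, and Pcolce2, an enhancer of propeptide removal, was 6.02-fold lower (5.74 to 6.31). In tenocytes of the quiescent library Lox was 10.0-fold higher (7.86 to 12.8) than in other cells of the same library.

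The 14 members that stayed under 20 CPM in all 15 combinations of population and library were Col4a3, Col4a6, Col7a1, Col9a1, Col9a2, Col9a3, Col19a1, Col20a1, Col10a1, Col6a4, Col6a5, Col17a1, Col25a1 and Col28a1. Their highest values ranged from 0.0665 CPM for Col10a1, known from growth plate cartilage, to 17.8 CPM for Col9a2, a FACIT chain of cartilage, in tenocytes of the quiescent library. Col4a3, the trimer partner of Col4a4, measured 9.85 CPM at quiescence, 0.586 on day 1, 0.695 on day 2, 0.699 on day 4 and 4.90 on day 14 in other cells. Col25a1 had 23 UMIs over all populations and libraries. Of these, 11 were in mural cells, at 2.40 to 6.12 CPM, 3 in the far larger number of other cells and the rest in tenocytes.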

How the data were processed

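Single-cell RNA-seq libraries were made with the 10x Chromium 3′ v2 kit from FACS-purified tdTomato-positive cells, per the labels' protocols. The deposited files hold raw UMI counts per gene and cell barcode for each of 5 libraries. The authors used Cell Ranger and mm10, per the submitters' processing notes. Its version, the annotation and any removal of doublets are not stated in the labels. No doublet caller was run here, and an alternative left out the 5% of cells with most UMIs in each library.

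Cells with at least 500 genes and at most 10% mitochondrial UMIs were kept, and cells were assigned by at least 5 UMIs of the 4 tenocyte or the 4 mural markers. UMIs were summed per population and library and divided by the population's total to give CPM. A ratio was counted at 2-fold with 20 CPM or more on the higher side. A gene with 0 UMIs was set against a floor of 3 counts, and no fold was given where both sides were at or under it. Intervals are exact conditional binomial, Poisson or Clopper-Pearson at 95%. They cover counting error only, and since each time point is 1 library they say nothing of variation between animals. No test across libraries was possible.

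Every member that reached 20 CPM was named by class. Full values were given for the 4 members per class of highest mean CPM and for those with the 4 highest and 4 lowest median ratios between populations. For the other genes of the pathway, counts and the 4 largest ratios were given. The members and lists were chosen with earlier results of these data known. Alternatives changed the cell filter, marker limit, scaling (TMM, DESeq2 size factors, members out of the total), cell weighting, level and fold. The counting rule was tested on simulated counts at the depth of other cells, with planted changes larger than the 2-fold limit. That did not cover the lower depth of mural cells or changes near the limit. Gene positions came from GENCODE M21 and promoter windows from the RefSeq table for GRCm38.p6. Analyses used R 4.3.3, edgeR 4.0.16, DESeq2 1.42.0, Python 3.11.15, numpy 2.4.6, scipy 1.17.1, pandas 2.3.3 and matplotlib 3.10.9.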

Additional observations from a re-analysis of the deposited data

Results flagged for a closer look

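In 6 cases a member was counted as higher in 1 population and lower in another at the same day, as ratios of the day to the quiescent library, and none of these differences between populations was tested, since each rests on 1 library per day. Col18a1 at day 1 was 0.245 times the quiescent level in tenocytes, 2.528 times in mural cells and 0.2176 times in other cells. At day 4 Col18a1 was 0.3878 times in tenocytes and 3.52 times in mural cells. Both type I chains went apart at day 2: Col1a1 was 0.302 times the quiescent level in tenocytes and 2.155 times in mural cells, and Col1a2 was 0.2878 times in tenocytes and 2.329 times in mural cells. The FACIT chain Col14a1 at day 2 was 0.4357 times in tenocytes, 2.626 times in mural cells and 0.3071 times in other cells. Its mural value rested on 39 UMIs at day 2 against 7 in the quiescent library. With the progenitor-marker cells left out, Col14a1 in mural cells had 0 UMIs at day 2 and 2 in the quiescent library. Col12a1 at day 4 was 0.3917 times in tenocytes and 2.846 times in other cells. In mural cells of at least 4000 UMIs, the ratios of Col1a1, Col1a2 and Col14a1 at day 2 and of Col18a1 at day 1 lay below 1 instead. In the same cells Col18a1 measured 295 CPM at day 4 against 215 CPM in the quiescent library, under the 2-fold limit. The quiescent cells of that limit held 472 of the 516 Dcn UMIs of all quiescent mural cells. With progenitor-marker cells left out instead, Col1a1 in mural cells measured 459 CPM at day 2 against 229.7 CPM in the quiescent library. Col1a2 measured 684 against 289 CPM there, and Col18a1 at day 1 measured 231 against 58.9 CPM. The reason for this difference between settings was not tested. The case of Col12a1 involves no mural cells.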

How the results depend on the processing

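Each count of members was recomputed under 15 alternatives, and 430 of 510 such counts were within 1.5 times the value in the report. In addition, no second library of any time point was analysed, and mural cells were few. With 1000 genes and 5% mitochondrial UMIs, members higher in mural cells numbered 0 at day 1, 2 at day 2 and 3 at day 4, members lower in them 9, 7, 4 and 7 at days 1, 2, 4 and 14, and members lower in tenocytes at day 14 numbered 4. With cells of at least 4000 UMIs, chosen after seeing the data, members higher in mural cells numbered 0, 0 and 1 at days 1, 2 and 4 and members lower 13, 9, 5 and 14 at days 1, 2, 4 and 14. The same limit gave tenocytes 1 higher at day 2, 1 higher and 4 lower at day 14, and 1 member higher in mural than other cells in all 5 libraries. Leaving out cells with progenitor markers, also chosen after seeing the data, gave tenocytes 1, 1 and 2 higher at days 1, 2 and 4, 5 lower at day 14 and 4 above other cells in all libraries, and mural cells 1 lower at day 4 and 5 below other cells. A marker limit of 3 UMIs gave 1 member lower in tenocytes at day 14 and 0 below other cells. A limit of 10 UMIs gave 2 higher in tenocytes at day 4 and 4 lower in mural cells at day 1. A limit of 0.1% gave 1 higher in other cells at day 14, 1 higher in tenocytes at day 4, 4 lower at day 1 and 2 higher at day 2 in mural cells, and 4 above and 2 below other cells in tenocytes. TMM gave 8 higher at day 2 and 1 lower at day 14 in mural cells, 3 higher at day 2 against day 1 in other cells and 2 below other cells in tenocytes, and DESeq2 size factors gave 4 at day 2 against day 1. TMM moved the median log2 ratio of all features at day 1 in other cells to 0.30 and higher features to 67.7% of those counted. The mean of cells gave tenocytes 1 and 2 higher at days 2 and 4, mural cells 1 lower at day 1, 7 higher at day 2, 1 higher and 1 lower at day 14, and other cells 2 lower at day 14 against day 4. It also gave 4 above and 3 below other cells in tenocytes and 2 below in mural cells. Removing cells of other types, or the deepest 5%, gave 1 higher in tenocytes at day 2, and the second also 4 lower at day 14. At 5 CPM, tenocytes had 1 higher at day 2, 1 higher and 4 lower at day 14 and 5 above other cells, mural cells had 4, 6, 1 and 5 lower at days 1, 2, 4 and 14 and 1 higher at day 14, and other cells had 1 higher at day 14 and 3 higher at day 14 against day 4. At 1.5-fold, other cells had 8 higher at day 4, 1 higher and 4 lower at day 14 and 2 higher and 8 lower at day 14 against day 4, tenocytes had 1 and 8 higher at days 2 and 4, 5 lower at day 14 and 2 below other cells, and mural cells had 5, 5, 1 and 5 lower at days 1, 2, 4 and 14, 8 higher at day 2 and 1 at day 14. Of 1885 recomputed ratios of counted members, 106 moved by over 1.5 times, and 9 reversed, all 9 in mural cells. With 4000 UMIs the log2 ratio to quiescent was -0.39 for Col18a1 at day 1, -0.42 for Col1a1, -0.44 for Col1a2 and -0.29 for Col14a1 at day 2 and -0.71 for Col16a1 at day 4, where only 8 quiescent mural cells were left. Without progenitor-marker cells it was 0.050 for Col4a1 at day 2 and 1.34 for Col8a1 at day 14, and for the same Col8a1 0.0044 with a marker limit of 3 UMIs and 0.036 with the mean of cells. The cause of the other changes was not tested. Shares of cells moved with depth. For Col8a1 in other cells they were 11.4, 45, 40.7, 49.4 and 15.6% unthinned and 9.21, 28.5, 22.6, 37.9 and 10.7% at 2500 UMIs, in the quiescent, day 1, 2, 4 and 14 libraries. For Col11a1 in tenocytes they were 71.4, 37.7, 67.7, 54.4 and 81.1% unthinned in the same order, and at 2500 UMIs 66.0% at quiescence, 15.7% on day 1, 35.4% on day 2, 35.6% on day 4 and 66.8% on day 14, each from 1 random draw. No paired analysis was possible because each time point is 1 library, and no replicate could be left out.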

Other observations

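In other cells, 82 of all 28001 features were lower at days 2 and 4 than in each of the other 3 libraries. The limit was over 2-fold after 5 CPM were added to every value. None of the 44 collagen chain genes was among them, which says little about the members where so few features were counted. The rule also leaves out any gene that was lowest at day 1, as many members were.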
